A study of Drosophila melanogaster with 6 samples.

Results

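The Dpr and Beat genes encode immunoglobulin-domain proteins on the surface of neurons. In the tables of this study they were taken as the symbols dpr and dpr followed by a number, the symbols that begin with beat-, and side. This gave 35 of the 16508 genes, 20 dpr genes, 14 beat genes and side, and all 35 had at least 10 counts in at least 3 libraries and were tested. Whole larvae at instar 3 were sequenced as polyadenylated RNA in 6 libraries, 3 labelled wild-type (the Oregon strain) and 3 labelled crol-KO, with 40 larvae pooled per library. In the knockout the coding part of crol was replaced by DsRed with CRISPR/Cas9, in a stock mutant for y, w (w1118) and DNAlig4 in which the Actin5C promoter drives Cas9, and carriers were crossed to y w1118. Crol is a zinc finger protein that binds poly(G) stretches and Polycomb response elements. The line was kept over a CyO balancer with a transgene of Tb and w+, and how its larvae were picked is not given in the sources used here. No treatment and no larval age beyond the instar is given.

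Dpr proteins, named for the defective proboscis extension response of a mutant, bind the DIP proteins, a smaller family of the same kind. Each Dpr binds 1 or a few DIPs, and the pairs take part in matching neurons with their partners in the brain and motor axons with their muscles. Beat proteins, named after beaten path, bind proteins of the Side family. Beat-Ia is on motor axons and Side, encoded by sidestep, is its ligand on muscles and along the path of the axons. Their binding lets axons leave their bundle and enter the muscle field.

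The genotype of a library was taken from its sample title, and every direction below rests on these labels, although each table was deposited under a name with the opposite genotype. The libraries held between 23637969 and 49236787 expected counts. The targeted gene, crol, stood at 60.6 to 73.2 CPM (a count relative to the library total, scaled by TMM) under the wild-type label and at 37.0 to 42.8 CPM under the crol-KO label, far from 0 in each. Its log2 fold change was -0.73 (edgeR adjusted p = 0.0043), or -0.14 (edgeR adjusted p = 0.63) with the length offset described below. The eye color gene w, mutated in the stocks behind the knockout, stood at 0.561 to 0.817 CPM under the wild-type label and 15.2 to 17.9 CPM under the crol-KO label. The order of crol runs with the labels and its groups did not overlap. Of all tested genes, 26.5% had every library labelled crol-KO below every library labelled wild-type. The order of w goes against the labels. The log2 fold change of w was 4.63 (edgeR adjusted p = 1.6e-05), or 4.71 with the length offset. Strain and genotype cannot be told apart in this design.

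The 35 genes were transcribed at low levels in whole larvae. The mean level over the 6 libraries was between 0.10 and 2.42 TPM, a level relative to transcript length and library, with a median of 0.265, against a median of 4.97 for all tested genes. Only dpr7 and dpr17 were above 1 TPM, and 33 genes were below. A single gene had between 3 and 340 counts in a library, with a median of 28.5, and 15 genes were under 10 counts in at least 1 library. Log2 fold changes had wide standard errors accordingly, with a median of 0.35 for these genes and 0.18 for all tested genes. Within such errors small differences were not detectable at this depth.

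Comparing the crol-KO label with the wild-type label, 7 of the 35 genes were called lower (20.0%), side, dpr8, dpr6, dpr, beat-Ic, beat-VII and beat-VI. A single gene, dpr16, was called higher. Calls were made at an adjusted p under 0.05 from edgeR's quasi-likelihood test, adjusted over all 12434 tested genes, and an absolute log2 fold change above 1. Of all tested genes, 7.55% were called lower and 6.0% higher. Without the fold threshold the same number of members, 7, passed as lower, against 17.8% of all tested genes. The log2 fold change was negative for 29 of the 35 genes. Its median was -0.53 for the 20 dpr genes and -0.59 for the 14 beat genes, against -0.052 for all tested genes. In 14 of the 35 genes (40.0%) every library labelled crol-KO was below every library labelled wild-type, which held for 26.5% of all tested genes. This was so for 8 of the 14 beat genes and 5 of the 20 dpr genes, and for side. In bulk RNA of whole larvae, fewer cells of a type and less RNA per cell cannot be told apart.

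**Figure D1:**
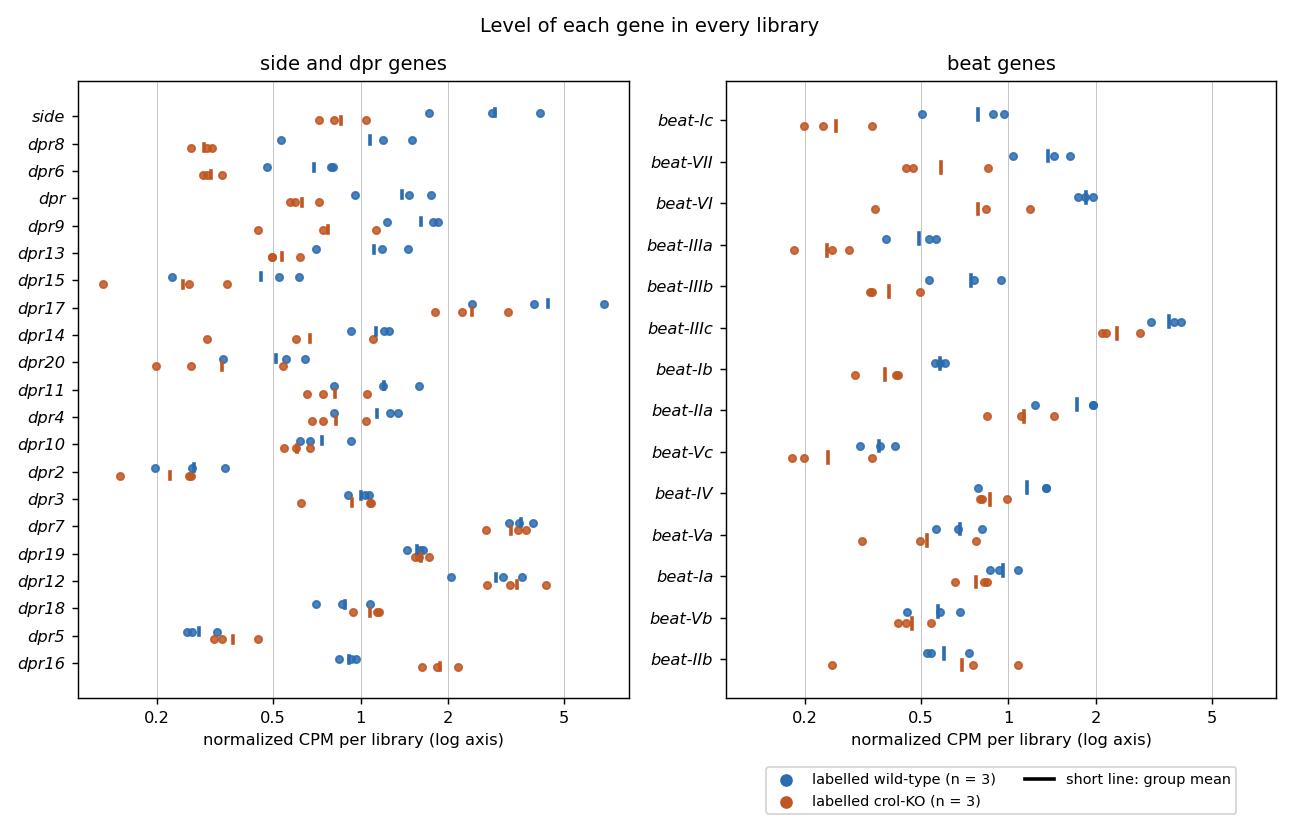
Normalized CPM of each gene in every library on a log axis, with side and the dpr genes on the left and the beat genes on the right. Points are libraries and short lines are group means (n = 3 each). The points of dpr16 in labelled crol-KO lie to the right of all those in labelled wild-type, while in side, dpr8, dpr6, dpr, beat-Ic, beat-VII and beat-VI they lie to the left.

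In replicates 1, 2 and 3, the order of all values below, side, which encodes the ligand of Beat-Ia, stood at 2.83, 4.12 and 1.71 CPM under the wild-type label and at 0.720, 0.809 and 1.04 CPM under the crol-KO label. The groups did not overlap, and replicate 2 labelled wild-type was the highest library. The means were 2.89 ± 1.21 and 0.856 ± 0.165 CPM (SD, n = 3 each), a 3.43-fold lower value (log2 fold change -1.78 ± 0.358 standard error, edgeR adjusted p = 0.0088). With each library left out in turn the call was kept, with log2 fold changes between -1.97 and -1.39.

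Of the dpr genes, dpr8 had the lowest log2 fold change. It stood at 1.20, 1.51 and 0.533 CPM under the wild-type label and at 0.309, 0.261 and 0.297 CPM under the crol-KO label. The libraries labelled crol-KO were close to each other and below all others, while replicate 3 labelled wild-type was the lowest of its group. The log2 fold change of dpr8 was -1.90 with a standard error of 0.443 (edgeR adjusted p = 0.015). Without replicate 2 or replicate 3 labelled crol-KO the adjusted p was 0.059 and 0.052, at log2 fold changes of -1.83 and -1.92.

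The gene dpr6, whose protein binds DIP-alpha, stood at 0.788, 0.804 and 0.477 CPM under the wild-type label and at 0.334, 0.287 and 0.297 CPM under the crol-KO label. The founding member dpr (dpr1 in the current annotation), required for the proboscis response to salt, had 1.75, 1.47 and 0.954 against 0.720, 0.574 and 0.594 CPM. In both genes the groups did not overlap, and replicate 3 was the lowest library labelled wild-type. This gave log2 fold changes of -1.16 for dpr6 with a standard error of 0.349 (edgeR adjusted p = 0.037) and of -1.13 for dpr with a standard error of 0.312 (edgeR adjusted p = 0.028). Neither call was held by all libraries. The adjusted p of dpr6 was between 0.074 and 0.132 without any other library than replicate 3 labelled wild-type, at log2 fold changes between -1.24 and -0.99. That of dpr was between 0.051 and 0.116 in the same 5 settings, at log2 fold changes between -1.25 and -0.88. DESeq2 gave dpr6 an adjusted p of 0.088.

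The beat gene with the lowest log2 fold change was beat-Ic. It stood at 0.963, 0.884 and 0.505 CPM under the wild-type label and at 0.231, 0.339 and 0.198 CPM under the crol-KO label, without overlap. This is a log2 fold change of -1.57 with a standard error of 0.395 (edgeR adjusted p = 0.020). The counts behind it were 9, 13 and 4 in the libraries labelled crol-KO. Without replicate 1 labelled wild-type, or replicate 1 or 3 labelled crol-KO, the adjusted p was 0.080, 0.062 and 0.073, at log2 fold changes of -1.34, -1.47 and -1.45.

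The gene beat-VII stood at 1.43, 1.63 and 1.04 CPM under the wild-type label and at 0.848, 0.470 and 0.446 CPM under the crol-KO label. For beat-VI the values were 1.96, 1.83 and 1.74 against 1.18, 0.835 and 0.347. In both genes the groups did not overlap, and replicate 1 was the highest of those labelled crol-KO. The log2 fold changes were -1.19 with a standard error of 0.345 (edgeR adjusted p = 0.034) and -1.17 with a standard error of 0.375 (edgeR adjusted p = 0.046). Without replicate 1 or 2 labelled wild-type, or replicate 2 or 3 labelled crol-KO, neither gene passed. The adjusted p was then between 0.072 and 0.114 for beat-VII, with a lowest log2 fold change of -1.09, and between 0.068 and 0.125 for beat-VI, at -1.18 to -0.87. Without replicate 3 labelled wild-type, beat-VI had an adjusted p of 0.059 at -1.13.

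Thus the number of genes called lower depended on single libraries. It was 2, 3 and 10 without replicates 1, 2 and 3 labelled wild-type. It was 5, 2 and 1 without replicates 1, 2 and 3 labelled crol-KO. Of all tested genes, 6.14%, 5.23% and 9.22% were called lower without replicates 1, 2 and 3 labelled wild-type. Without those labelled crol-KO the shares were 7.05%, 5.53% and 5.53%. Of the 7 genes, side was the only gene called in each of these 6 settings. Of the 28 genes not called lower, dpr13 (-1.04, adjusted p = 0.051 from edgeR), beat-IIIc (-0.61, 0.053), dpr9 (-1.06, 0.060), beat-IIIa (-1.05, 0.061) and beat-IIIb (-0.98, 0.067) came nearest to the threshold, and in none of them did the groups overlap.

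The single gene called higher was dpr16, whose protein binds DIP-gamma. It stood at 0.963, 0.844 and 0.926 CPM under the wild-type label and at 1.62, 2.17 and 1.83 CPM under the crol-KO label. The groups were far apart compared with their spread, 0.911 ± 0.0610 and 1.87 ± 0.276 CPM (SD, n = 3 each), and the log2 fold change was 1.04 with a standard error of 0.233 (edgeR adjusted p = 0.013). Without replicate 2 labelled crol-KO it was 0.92 (adjusted p = 0.061). An exon of dpr16 overlaps an exon of cno on the opposite strand in the Release 6 annotation. The strand setting of the counting is not given in the sources used here. The value of cno was called lower (log2 fold change -1.32). The part of this overlap in the counts of dpr16 was not tested. In TPM, a level per length, dpr16 was 0.433 ± 0.0723 and 0.640 ± 0.010 (SD, n = 3 each), and with limma on log2(TPM + 0.1) it was not called (0.48, adjusted p = 0.14).

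Another 5 genes had a positive log2 fold change, and none of them passed the test. For dpr12, which with DIP-delta takes part in wiring neurons of the mushroom body, the values were 3.09, 3.60 and 2.05 CPM under the wild-type label and 4.32, 2.71 and 3.27 CPM under the crol-KO label. For dpr19 they were 1.63, 1.45 and 1.60 against 1.54, 1.72 and 1.59, and the 6 libraries nearly coincided. For dpr18 they were 1.08, 0.864 and 0.701 against 1.16, 0.940 and 1.14. The groups overlapped in all of these. For dpr5 the values were 0.263, 0.322 and 0.252 against 0.334, 0.313 and 0.446. For beat-IIb they were 0.526, 0.543 and 0.729 against 1.08, 0.757 and 0.248, so that the libraries labelled crol-KO enclosed those labelled wild-type. On the log2 scale the differences were 0.24 for dpr12, 0.054 for dpr19, 0.29 for dpr18, 0.34 for dpr5 and 0.28 for beat-IIb, with standard errors between 0.206 and 0.465. All 5 signs turned with limma on log2 of TPM with a pseudocount of 1 and of 0.1, settings in which the median of all tested genes was itself -0.48 and -0.67.

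The most abundant genes of each family per length were dpr7 and dpr17, and beat-IIIc and beat-IIa. The gene dpr7 stood at 3.50, 3.24 and 3.90 CPM under the wild-type label and at 2.7, 3.71 and 3.47 CPM under the crol-KO label, and the groups overlapped (log2 fold change -0.11, standard error 0.191). For dpr17 the values were 3.94, 6.83 and 2.41 against 3.21, 1.80 and 2.23, with the highest value again in replicate 2 labelled wild-type (-0.87 ± 0.392 standard error, edgeR adjusted p = 0.12). The values of beat-IIIc were 3.91, 3.70 and 3.09 against 2.16, 2.09 and 2.82, without overlap. Those of beat-IIa were 1.96, 1.95 and 1.23 against 1.11, 1.44 and 0.842, which overlapped, and its log2 fold change was -0.58 with a standard error of 0.298 (edgeR adjusted p = 0.16). In TPM the order in labelled wild-type ran from dpr7 (3.06 ± 0.256) over dpr17 (1.95 ± 1.41) to beat-IIIc (1.35 ± 0.327), with SD and n = 3 each, and the spread of dpr17 covered both neighbours.

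**Figure D2:**
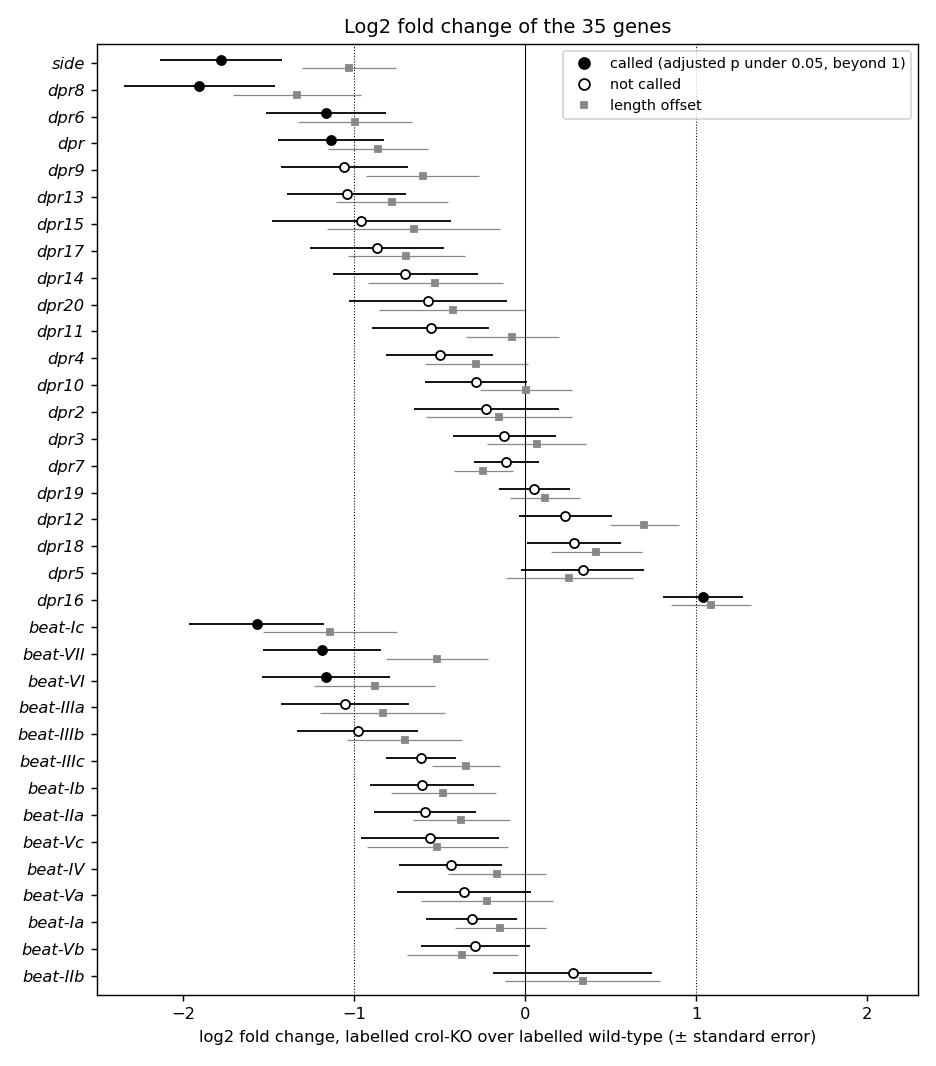
Log2 fold change between the labels (crol-KO over wild-type) for the 35 genes, with standard errors. Round points are the edgeR values, filled where called, small squares are the values after the length offset, and dotted lines mark the fold threshold. Most points lie left of 0, the squares of side, dpr8 and beat-Ic stay beyond the left dotted line, and dpr16 is the only gene beyond the right one.

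The remaining 10 dpr genes, dpr2, dpr3, dpr4, dpr9, dpr10, dpr11, dpr13, dpr14, dpr15 and dpr20, had log2 fold changes between -1.06 (dpr9) and -0.12 (dpr3), and none passed the test. The remaining beat genes, beat-Ia, beat-Ib, beat-IIIa, beat-IIIb, beat-IV, beat-Va, beat-Vb and beat-Vc, lay between -1.05 (beat-IIIa) and -0.29 (beat-Vb), and none passed either. Of the named pair on motor axons and muscles, beat-Ia had a log2 fold change of -0.31 with a standard error of 0.267 (edgeR adjusted p = 0.39), beside that of -1.78 for side. Whether beat-Ia and side differ in their change was not tested. A further dpr gene of the current annotation, dpr21, has another symbol in the tables and was not among the 35. Its log2 fold change was -0.18 with a standard error of 0.258 (edgeR adjusted p = 0.62).

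Transcript length moved with these values. Over all 12434 tested genes the log2 fold change was lower for longer transcripts (Spearman rho -0.37), and over the 35 genes rho was -0.68. Both are descriptions across genes of the same 6 libraries, which are not independent. The tested dpr and beat genes had median transcript lengths of 2934 and 3022 bases, against 1677 for all tested genes, and the lowest values came from long transcripts such as side and dpr8. When the trend of each library over length was removed as an offset, the median was -0.27 for the dpr genes and -0.43 for the beat genes, against -0.0075 for all tested genes. With this offset 2 genes were called lower, dpr8 (-1.33, adjusted p = 0.028 from edgeR) and side (-1.03, adjusted p = 0.023), where 5.66% of all tested genes were. Of the other 5, beat-Ic had -1.14 (adjusted p = 0.056), dpr6 -0.99 (0.053), dpr -0.86 (0.054), beat-VI -0.88 (0.091) and beat-VII -0.51 (0.22). The value of dpr16 was 1.09 (adjusted p = 0.010) and it remained called, and dpr12 passed the adjusted p at 0.70 (0.032), under the fold threshold. After the offset rho was 0.031 over all tested genes and -0.48 over the 35 genes. The part of length in the differences was not tested.

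**Figure D3:**
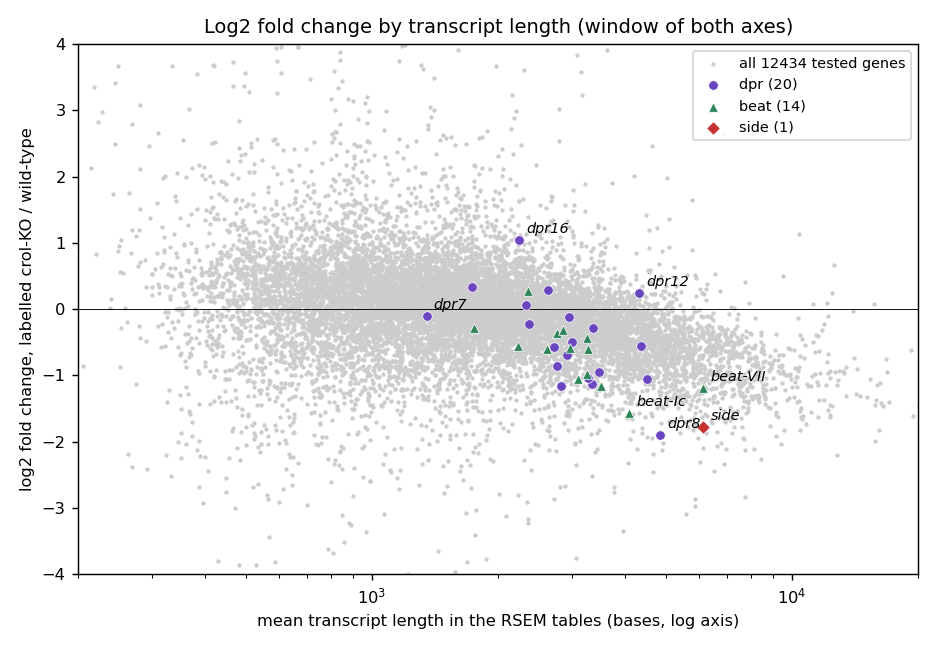
Log2 fold change between the labels (crol-KO over wild-type) against mean transcript length in bases on a log axis. Grey points are all tested genes within the window, colored points are the dpr genes, the beat genes and side. The grey cloud slopes down to the right, and side, dpr8 and beat-Ic lie in its lower part, while dpr16 lies in its upper part.

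By the Release 6 annotation, used here only for overlaps, arms and gene order since the authors worked in dm3, many of these genes lie in small groups. The 35 genes fell on 2L (9 genes), 2R (3), 3L (3), 3R (16), X (3) and the small chromosome 4 (1). In 9 pairs of members next to each other on an arm at most 10 other genes of the tables lie between, and the ratio of counts within a library was compared. In 4 of the 9 pairs the ratios did not overlap between groups, against 50.1% of all pairs of tested genes next to each other on an arm, a share near that background. In the beat-I group on 2L the log2 fold changes were -0.60 for beat-Ib, -1.57 for beat-Ic and -0.31 for beat-Ia, and the mean log2 ratio under the crol-KO label less that under the wild-type label was 0.91 for beat-Ib to beat-Ic and -1.22 for beat-Ic to beat-Ia. It was -0.83 for dpr6 to dpr10 on 3L and 0.83 for dpr5 to its direct neighbour dpr4 on 3R, which overlaps an annotated antisense RNA. Each has p = 0.10 in a two-sided exact permutation test, the smallest that 3 against 3 allow, and 0.225 adjusted over the 9 pairs. The beat-IIIa gene shares its annotated span with CG34106 on the same strand, so that the counting could have split their reads. CG34106 was itself called lower (log2 fold change -1.14).

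The tables also give for each library the transcript length of a gene weighted by the estimated abundance of its isoforms. It could vary in 29 of the 35 genes, and in 5 of these (17.2%) it did not overlap between the groups, against 25.4% of all such genes. For side, which has 4 transcripts in the tables, it was 6663, 6363 and 6344 bases in labelled wild-type and 6141, 5798 and 5583 in labelled crol-KO. For dpr16 it was 2319, 2374 and 2548 against 2032, 2133 and 2048 bases. Both were shorter in labelled crol-KO. In beat-IIIc, beat-IIb and beat-Va it was longer there, for beat-IIIc 3836, 3492 and 3159 bases against 3002, 3093 and 2994. A share under that of all genes gives no result for the family, and at such counts the estimate of isoforms rests on few reads.

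The partners of these proteins were then examined from lists of current symbols, matched to the symbols of the tables. Of the 11 DIP genes listed, 10 were matched and 9 tested, and DIP-lambda was not analysed here. DIP-iota, with few counts, was not tested. DIP-alpha and DIP-kappa were called lower (22.2% of 9, against 7.55% of all tested genes) and none higher, and the median log2 fold change was -0.57. DIP-alpha, which with Dpr10 guides motor axons to muscles, stood at 0.584, 1.67 and 0.729 CPM under the wild-type label and at 0.231, 0.261 and 0.0495 CPM under the crol-KO label. Its log2 fold change was -2.33 with a standard error of 0.584 (edgeR adjusted p = 0.020), from 9, 10 and 1 counts in labelled crol-KO. DIP-kappa had 1.17, 1.11 and 0.617 against 0.206, 0.183 and 0.446 CPM (-1.89 ± 0.446 standard error, edgeR adjusted p = 0.016). The groups did not overlap in either gene. Without replicate 1 or 3 labelled crol-KO the adjusted p of DIP-alpha was 0.050 and 0.057, at -2.49 and -2.02. That of DIP-kappa was 0.059, 0.056 and 0.066 without replicate 1 labelled wild-type, replicate 1 labelled crol-KO and replicate 2 labelled crol-KO, at -1.66, -1.72 and -1.65.

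The genes of known binding partners were set side by side. DIP-beta, whose log2 fold change was -1.27 with a standard error of 0.509 (edgeR adjusted p = 0.088), binds among others Dpr8 (-1.90) and Dpr9 (-1.06). Its other ligands are not listed here, and dpr8 and dpr9 are among the lowest of the 20 dpr genes (-1.90 to 1.04). These values thus do not stand for all ligands of DIP-beta. DIP-alpha (-2.33) binds Dpr6 (-1.16) and Dpr10, whose gene had -0.29 (standard error 0.298). DIP-gamma, with a log2 fold change of -0.57 (standard error 0.382), binds Dpr11, Dpr15, Dpr16 and Dpr17, whose genes had -0.55, -0.96, 1.04 and -0.87. DIP-delta had -0.32 (standard error 0.383) and its ligand gene dpr12 0.24. In the last group no value passed the test, and in that of DIP-gamma only dpr16 did. The ratio of dpr6 to dpr10 is given above. That of dpr17 to dpr15, which are near each other on 3R, overlapped between the groups, with a difference of 0.051 in the mean log2 ratio (two-sided exact permutation p = 1.0). Other differences within these groups were not tested.

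Of the 7 Side genes other than side, side-III and side-VI were called lower (28.6%, against the same 7.55%) and none higher, and all 7 log2 fold changes were negative, with a median of -0.97, or -0.26 with the length offset. The gene side-III stood at 6.63, 6.51 and 4.21 CPM under the wild-type label and at 0.874, 0.679 and 0.892 CPM under the crol-KO label. No library labelled crol-KO came near the lowest labelled wild-type, and the log2 fold change was -2.83 with a standard error of 0.256 (edgeR adjusted p = 0.00036), or -2.04 with the length offset (adjusted p = 0.0010). With each library left out it was between -2.95 and -2.66. For side-VI, whose protein binds the Beat-V proteins, the values were 1.46, 2.25 and 0.926 against 0.848, 0.548 and 0.396 CPM (-1.34 ± 0.415 standard error, edgeR adjusted p = 0.041). It did not pass without replicate 1 or 2 labelled wild-type or replicate 2 or 3 labelled crol-KO (adjusted p between 0.089 and 0.125, log2 fold changes between -1.31 and -0.91), or with the length offset (-0.55, adjusted p = 0.19). The genes of the Beat-V proteins had -0.36 (beat-Va), -0.29 (beat-Vb) and -0.55 (beat-Vc), and none passed. The genes side-V (-0.97) and side-VIII (-0.99) passed the adjusted p but not the fold threshold (0.033 and 0.031), and with the length offset they had -0.26 (adjusted p = 0.31) and -0.51 (0.13). The genes side-II, side-IV and side-VII had -0.35, -0.61 and -0.60 and did not pass. Side-IV binds Beat-IIa and Beat-IIb, whose genes had -0.58 and 0.28.

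**Figure D4:**
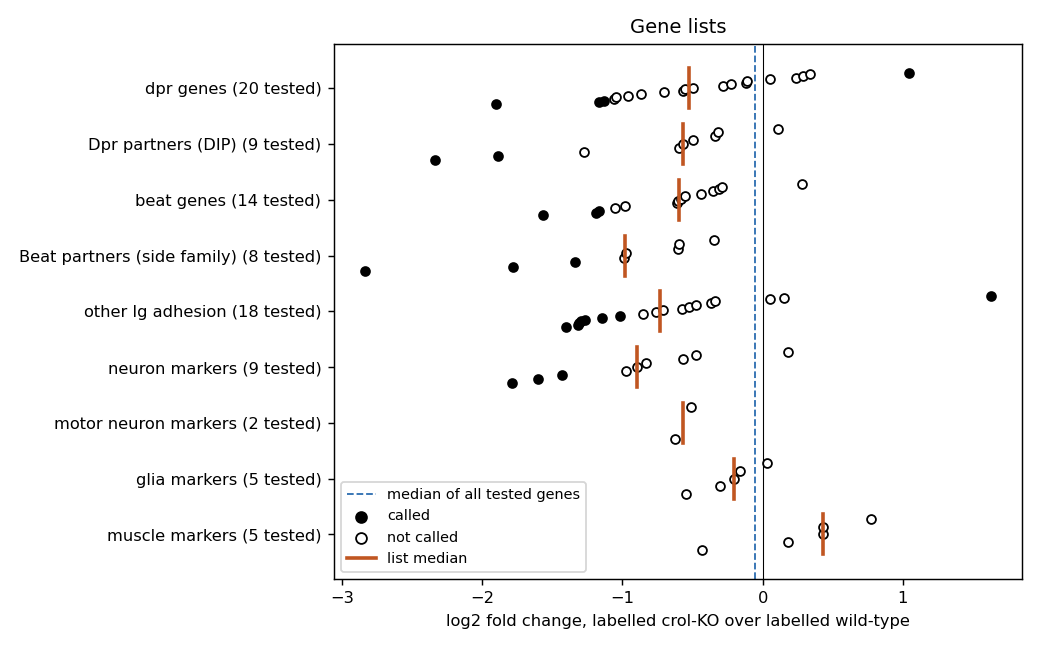
Log2 fold change between the labels (crol-KO over wild-type) for the dpr and beat genes, their partners (DIP, and the Side family with side), other adhesion genes and marker lists. Points are genes, filled where called, thick lines are list medians and the dashed line is the median of all tested genes. The medians of dpr, DIP, beat, Side, other adhesion, neuron, motor neuron and glia genes lie left of the dashed line. That of muscle markers lies right of it.

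Among 18 other immunoglobulin adhesion genes, 7 were called lower (38.9%, against 7.55% of all tested genes) and 1, fipi, higher, with a median of -0.73. Without replicate 2 labelled wild-type, 0 of the 18 were called lower, and with the length offset also 0 (against 5.66% of all tested genes), where the median was -0.18. Without replicate 1 labelled wild-type, or replicates 1, 2 or 3 labelled crol-KO, 4, 4, 2 and 2 were. Markers of neurons and other tissues also differed between the labels. The summed CPM of 9 neuron markers was between 198 and 226 in labelled wild-type and between 129 and 158 in labelled crol-KO, with 3 of 9 called lower (against 7.55% of all tested genes), 6 of 9 lower at the adjusted p alone (against 17.8%) and a median log2 fold change of -0.90 (-0.41 with the length offset). The pan-neuronal gene elav had -0.98 (adjusted p = 0.0028 from edgeR), or -0.33 with the length offset (adjusted p = 0.043). Without the offset the only positive value was that of Rbp9, 0.18, which was 0.47 with it (adjusted p = 0.046). With the offset 1 of the 9 neuron markers, fne, was called lower (-1.19, adjusted p = 0.0020). Of the 2 tested motor neuron markers both passed the adjusted p as lower, VGlut at -0.62 and exex at -0.51, and neither passed with the length offset (0.012, adjusted p = 0.97, and -0.44, adjusted p = 0.057), while eve was not tested, with between 1 and 8 counts in a library. Of 5 glia markers none was called (median -0.21), while Eaat1 passed the adjusted p as lower (-0.55, edgeR adjusted p = 0.016). Of 5 muscle markers none was called (median 0.43), while Act57B passed as higher (0.77, edgeR adjusted p = 0.041). All 6 eye and imaginal disc markers had negative values (median -0.27), and ct was called lower (-1.62, edgeR adjusted p = 0.004). With the length offset ct was not called (-0.58). Of 4 salivary gland markers none was called (median -0.42), and with the offset Sgs3 was called lower (-1.04, adjusted p = 0.027). Of 4 fat body markers 2 were called lower and 2 had positive values, Lsp1beta at 0.82 (edgeR adjusted p = 0.027) and Lsp2 at 0.28, with a median of -0.58 over the 4, and 3 of 3 midgut markers were called higher (median 1.95). The sums of the beat genes did not overlap, with 13.2 to 16.6 CPM in labelled wild-type and 8.92 to 10.7 in labelled crol-KO. Those of the dpr genes did, with 20.7 to 31.4 and 19.2 to 23.7. The part of neurons and of the other tissues in these values was not tested. For the same experiment, the paper links the genes higher in crol-KO to neuron-related functions. That statement rests on Gene Ontology terms of all genes the authors called higher, not on the 9 markers listed here. Under the labels used here most of these markers went the other way. As given above, the deposited names carry the opposite genotype and w goes against the labels. With genotypes taken from the deposited names, every direction reported here would turn. The reason for the difference from the paper was not tested. Whether the labels or the deposited names are right cannot be told here.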

How the data were processed

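The 6 tables were made by the authors, who trimmed reads with Trim Galore 0.6.1, aligned them to dm3 with STAR 2.7.3a and ran RSEM 1.3.2. Per the file headers they hold expected counts of genes, without scaling, and TPM values scaled per library by the authors. The deposited length and effective length are other values, in bases, weighted by isoform abundance. Whether the counting used strand is not given in the sources used here, so genes that overlap on opposite strands may share reads. The differential call of the authors used featureCounts and DESeq2, not analysed here.

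Counts were rounded. A gene needed 10 or more counts in 3 or more libraries, and those that had them were fitted with edgeR 4.0.16 in R 4.3.3 (TMM, quasi-likelihood, Benjamini-Hochberg, no block), with the thresholds of the study, and the script was tested on simulated data. The standard error is the log2 fold change over the root of F. Alternatives were DESeq2 1.42.0, its size factors, upper-quartile scaling, limma 3.58.1 on log2 of TPM with a pseudocount of 1 or 0.1, other filters, an adjusted p under 0.01, leaving out each library, a block for replicate number, and an offset of the lowess trend (span 0.3) over log2 length. Ratios of neighbours used counts with 0.5 added. All 35 genes matched the Release 6 annotation, by transcript accession or symbol. All members were accounted for, with values per library for side, called genes (up to 6 per family), genes with a positive log2 fold change and the 2 highest by TPM in each family. The members and lists were chosen with earlier results of these data known. Each library is a pool of larvae, one of 3 biological repeats of its genotype.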

Additional observations from a re-analysis of the deposited data

How the results depend on the processing

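The counts of calls depended on the settings and the directions mostly did not. The 7 genes called lower became 0 and 12 with limma on log2 of TPM with a pseudocount of 1 and of 0.1. They were 3 with at least 10 counts in every library (20 members tested). With the length offset they were 2, and at an adjusted p under 0.01 they were 1. Of all tested genes, 13.6% and 25.2% were called lower with the limma settings and 6.90% with the stricter filter. The shares were 5.66% with the length offset and 4.69% at an adjusted p under 0.01. Without each library the members called lower were between 1 and 10. The lower genes at an adjusted p under 0.05 alone were 17 with limma on log2(TPM + 0.1), 4 with at least 10 counts in every library, 2 with the length offset, 1 at an adjusted p under 0.01 and between 1 and 10 without each library. The single gene called higher became 0 with both limma settings, at an adjusted p under 0.01 and in 1 of the leave-outs (between 0 and 1). The dpr median was -0.22 and -0.75 with the limma settings, -0.30 with at least 10 counts in every library, -0.27 with the length offset and between -0.66 and -0.28 without each library. The beat median was -0.48 with upper-quartile scaling, -0.22 and -0.83 with limma, -0.43 with the length offset and between -0.74 and -0.44. The value of crol was -0.14 with the length offset. The DIP genes called lower were 0 with limma on log2(TPM + 1), 0 with at least 10 counts in every library, 0 at an adjusted p under 0.01 and between 0 and 2 without each library. The Side genes were 0 and 4 with limma, 1 with the length offset, 1 at an adjusted p under 0.01 and between 1 and 4. The other adhesion genes were 4 with upper-quartile scaling, 13 with limma on log2(TPM + 0.1), 0 with the length offset, 1 at an adjusted p under 0.01 and between 0 and 7. The cause of the other differences was not tested, while the stricter filter tests fewer genes and the stricter p passes fewer by construction.

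With the replicate number as a block, 3 members were called lower (3 also at the adjusted p alone) and 0 higher. Of the partners, 1 DIP gene and 1 Side gene were called lower. Of all tested genes, 6.51% were called lower with the block and 4.80% with the block and the length offset. Same-numbered libraries' deviations correlated at 0.015, -0.32 and -0.052, with a mean of -0.12 against 0.058 for libraries of other numbers. With 3 libraries in a group these correlations cannot decide whether the numbers pair the samples. With the block and the length offset together 0 members were called lower, 0 passed the adjusted p as lower, the dpr and beat medians were -0.27 and -0.45, side was -1.02 and crol -0.091, and the DIP, Side and other adhesion genes called lower were 0, 1 and 0.

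Signs turned in genes near 0. With limma on log2 of TPM with a pseudocount of 1 and of 0.1 the log2 fold changes were -0.10 and -0.45 for beat-IIb, -0.16 and -0.34 for dpr12, -0.098 and -0.29 for dpr18, -0.23 and -0.52 for dpr19, -0.024 and -0.10 for dpr5 and -0.071 and -0.32 for DIP-theta. With the length offset, without and with the block, they were 0.0057 and 0.0069 for dpr10, 0.068 and 0.050 for dpr3 and 0.30 and 0.28 for side-II. With each library left out they were between -0.16 and 0.62 for beat-IIb, between -0.34 and 0.053 for dpr2, between -0.26 and 0.11 for dpr3 and between -0.21 and 0.037 for dpr7, which was also 0.020 without replicate 1 labelled crol-KO and 0.010 with upper-quartile scaling. No other sign of a Dpr, Beat, DIP or Side gene turned.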
